A study of Arabidopsis thaliana with 18 samples.

Results

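miR5651 (mir5651 in the deposited table) is a microRNA (miRNA) family of Arabidopsis thaliana with 1 annotated hairpin. It comprised every sequence that stood under its family line in the deposited table of miRNA read numbers, which was 1 sequence of 498 entries (476 distinct sequences) and 1 family of 101. It was selected on its values in the RNA bound to ARGONAUTE1 (AGO1), where it was higher after treatment with the fungus Alternaria brassicicola than in both controls, and for its presence in AGO1 libraries. Those values are therefore given as a description with no test. Tests were made on total RNA libraries and on the 2 control treatments of the AGO1 libraries.

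The RNA came from rosette leaves of Col-0, the reference accession of Arabidopsis, grown for 5 to 6 weeks in short days of 8 h light at 22 °C. The treatments were none, mock, or a spray of Alternaria brassicicola strain MUCL 20297 at 1000000 spores per ml in 0.01% of the wetting agent Silwet L 77, with harvest 3 days later. The labels used here give no harvest day for mock or untreated plants and no Silwet content for the mock spray, and no transgene or mutation was part of any group. Sequenced small RNA came either from total RNA or from an immunoprecipitate made with an AGO1 antibody, in 3 biological replicates for each of the 3 treatments and both library types, which makes 18 libraries in 6 groups. The library types were prepared by different protocols. They share replicate numbers, and whether they came from the same plants is not given. In such bulk leaf samples, a different number of cells of a type and a different amount of RNA per cell cannot be told apart.

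In plants, DICER-LIKE1 cuts a miRNA, usually of 21 nucleotides, out of a folded precursor transcript, and ARGONAUTE proteins take up 1 strand and use it to find complementary transcripts. AGO1 is the main miRNA carrier in leaves and prefers strands that begin with U. miR5651 belongs to the large number of Arabidopsis families that were described from deep sequencing and are not among the miRNAs conserved across land plants.

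The sequence that the table counts as miR5651 and the precursor it comes from are shown first, since every value below is a read number of this 1 sequence. Bases 2 to 8, the seed, are in capitals in the mature sequence, and T stands for U.
miR5651: tTGTGCGGttcaaatagtaac
The hairpin follows, 5′ to 3′ on the plus strand of chromosome 3, with the mature sequence in capitals and its last 8 bases left out because they belong to the neighbouring gene as well.
MIR5651 hairpin: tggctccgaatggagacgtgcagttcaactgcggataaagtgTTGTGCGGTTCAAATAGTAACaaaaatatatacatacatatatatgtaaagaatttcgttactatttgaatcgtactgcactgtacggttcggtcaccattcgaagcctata
The strand that lies opposite the mature sequence in the predicted fold, shifted to leave the usual 3′ overhangs, is given because it is the other product such a hairpin could release.
opposite strand: tactatttgaatcgtactgca

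These sequences were read from the RefSeq copy of the TAIR10.1 assembly, and TAIR10 is the build the authors name. The mature sequence had 1 exact match in the genome, the number the table gives, at chr3:17178489-17178509 on the plus strand. It lies within the annotated precursor gene MIR5651 (AT3G07515) at chr3:17178447-17178608, at positions 43 to 63 of its 162 bases. RNAfold gave the hairpin a minimum free energy of -63.8 kcal/mol, with 20 of the 21 mature bases paired, 3 of them in G:U pairs, and 1 unpaired. The mature sequence begins with U and has a GC content of 38.1%.

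The hairpin stands apart from other annotated small RNAs and overlaps the end of a protein-coding gene. Its last 8 bases overlap, on the opposite strand, the 3′ end of RDUF1 (AT3G46620, chr3:17178601-17180559, minus strand), a RING-type ubiquitin ligase gene whose annotation names responses to abscisic acid, drought and chitin. The mature sequence ends 92 bases from that 3′ end, and the coding part of RDUF1 begins 236 bases further on, so the overlap lies in its 3′ untranslated region. On the other side, the noncoding RNA gene AT3G07505 ends 437 bases before the hairpin on the same strand. Of the other sequences in the table, 0 lay within the hairpin, 0 had the seed of miR5651, and the closest, a miR171 sequence, had 8 mismatches. The tool that made the table counted known mature miRNAs, so reads of the opposite strand were not analysed here.

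The 9 total libraries held between 0.754 and 3.03 times 1000000 miRNA reads and the 9 AGO1 libraries between 10.8 and 20.3 times that number. In the same unit, genome-matched reads ran from 16.5 to 66.2 in total libraries and from 13.7 to 25.8 in AGO1 libraries, so miRNAs made up 2.53% to 13.2% of the former and 77.8% to 83.4% of the latter. AGO1 libraries differed from total libraries in their first bases: sequences that begin with U took 99.75% to 99.81% of their miRNA reads against 71.6% to 85.6% in total libraries, and miR390, a partner of AGO7, took 0.0162% to 0.0367% against 9.34% to 19.8%. No miRNA family defines rosette leaves, so the tissue label could not be checked against markers. Each library was sequenced in 2 runs, and the lowest read number listed in any run was 15. A sequence listed at 0 can therefore have had up to 14 reads in a run and 28 in a library, which sets the limits given below.

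In total RNA, miR5651 was listed in 4 of 9 libraries, the 3 Alternaria libraries among them. The 3 untreated libraries each listed 0 reads. The mock libraries listed 0, 0 and 17 reads, and the 17 came from 1 run of the third replicate, so up to 31 reads are possible there. The Alternaria libraries listed 49, 45 and 221 reads, with 95% Poisson intervals of 36.3 to 64.8, 32.8 to 60.2 and 193 to 252 that cover counting error only. Both runs held the sequence in each Alternaria library, at 23 and 26, 18 and 27, and 99 and 122 reads. The third Alternaria replicate was the highest of the 9 total libraries, and even the lowest Alternaria read number was above the 31 reads that the listing allows in a control library.

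**Figure D1:**
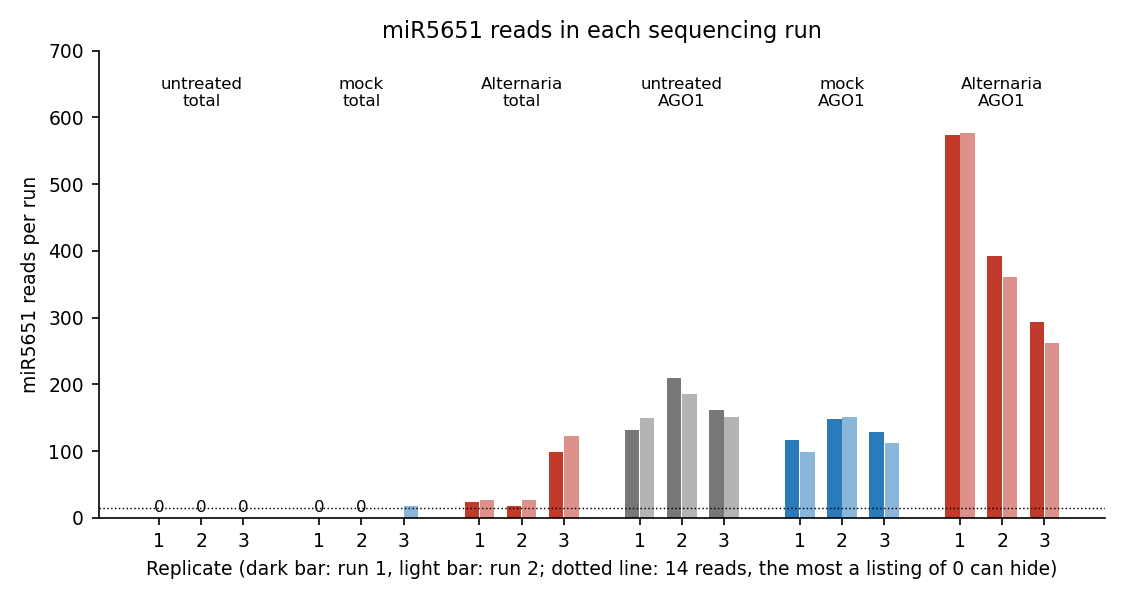
Reads of miR5651 (vertical axis) in each of the 2 sequencing runs of the 18 libraries, dark bars for run 1 and light bars for run 2, by group and replicate. The dotted line marks the 14 reads that a listing of 0 can hide. Untreated and mock total libraries lie at 0 apart from 1 mock run with 17 reads, and all AGO1 runs lie above the line.

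All 9 AGO1 libraries listed miR5651 in both runs. The untreated AGO1 libraries held 281, 394 and 313 reads. Mock AGO1 libraries held 215, 299 and 240 reads. Alternaria AGO1 libraries held 1151, 754 and 556 reads, which put the lowest of them above the highest control library. The runs of a library gave similar numbers, for example 574 and 577 in the first Alternaria replicate and 116 and 99 in the first mock replicate.

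Per 1000000 miRNA reads, the Alternaria AGO1 libraries stood at 58.2, 69.6 and 34.6, a mean of 54.1 ± 17.9 (SD, n = 3). Untreated AGO1 libraries had 15.1, 19.4 and 22.0 (18.8 ± 3.46) and mock AGO1 libraries 11.6, 20.6 and 18.5 (16.9 ± 4.66). On this scale the 2 control groups overlapped, and the lowest Alternaria library was above the highest of both. The third Alternaria replicate, the lowest of its group in AGO1 RNA, was the highest in total RNA.

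Among all families, miR5651 was of middle to low abundance in AGO1 RNA. By mean reads per 1000000 miRNA reads it ranked 51 of the 80 families listed in untreated AGO1 libraries and 54 of 79 in mock. It ranked 37 of 82 in Alternaria AGO1 libraries, where it made up 0.00541% of the miRNA reads. In total RNA it ranked 59 of 80 listed families after Alternaria, with 0.00412% of the miRNA reads, and 78 of 80 after mock treatment. It was thus a rare miRNA in each group, also where it was highest.

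The comparisons below use counts per 1000000 miRNA reads (CPM) scaled with trimmed mean of M-values (TMM) factors, which allow for a few families that take most reads, separately for the 2 library types. Differences are on the scale of log2(CPM + 1) with their standard error. Values that pass have a Benjamini-Hochberg adjusted p of at most 0.05 over all families tested with limma.

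In AGO1 RNA, miR5651 was at 57.9, 70.0 and 40.4 CPM after Alternaria (56.1 ± 14.9), at 12.7, 14.99 and 17.0 CPM after mock treatment (14.9 ± 2.17) and at 19.4, 19.9 and 19.6 CPM in untreated leaves (19.7 ± 0.256). The Alternaria libraries lay above all 6 controls. The difference from mock was 1.82 ± 0.28, or 3.53-fold, and that from untreated leaves 1.43 ± 0.28, or 2.70-fold. In both comparisons it ranked 1 of the 79 families tested, which is how the family came to be chosen, and both share the same Alternaria libraries. Over the alternatives the rank ran from 1 to 4 against mock and from 1 to 5 against untreated leaves, the lowest places with limma-voom. For scale, 5.06% of these families passed in Alternaria against mock and 8.86% in Alternaria against untreated leaves, and the median family differed by -0.00 and -0.07.

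The comparison of mock with untreated AGO1 libraries did not use the Alternaria libraries and could be tested. Mock libraries (12.7 to 17.0 CPM) were lower than untreated libraries (19.4 to 19.9 CPM) with no overlap on this scale, though not per 1000000 miRNA reads. The difference was -0.39 ± 0.28 and did not pass (limma, adjusted p = 0.706). Of the 79 families 0 passed by limma-trend (0%) and 0 by limma-voom, and 5 had an unadjusted p under 0.05 with limma-trend. The median family differed by -0.17.

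In total RNA, miR5651 was at 35.4, 19.5 and 72.3 CPM after Alternaria (42.4 ± 27.1), at 0, 0 and 5.09 CPM as listed after mock treatment, and at 0 in untreated leaves. The listing allows up to 18.8, 25.5 and 9.29 CPM in the mock libraries and up to 16.3, 38.8 and 31.6 CPM in the untreated libraries. As listed, the Alternaria group lies above both controls. With the controls at these limits the groups overlap, and the Alternaria mean is then 2.38 times the mock mean and 1.47 times the untreated mean, which are lower bounds of the fold.

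The way the family entered the tests of total RNA limits what they show. A family was tested when at least 3 libraries reached 5.92 reads per 1000000 miRNA reads, and miR5651 did so in 0 untreated, 0 mock and 3 Alternaria libraries. It was therefore tested through the group where it is high, so a difference was built into its being tested, and the p-values that follow are given with that limit. In AGO1 RNA all 9 libraries reached the minimum.

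Against untreated leaves, the fitted difference in total RNA was 5.25 ± 1.31 and passed (limma, adjusted p = 0.00951), with 3 of 3 Alternaria libraries higher as listed, where 24.7% of the 77 families passed in either direction. With no filter on low families it was 5.05 (limma, adjusted p = 0.00566). That fit keeps the untreated libraries at the 0 of the listing, so it does not lift the limit above. The fitted size depends on the value of 1 CPM added before the logarithm, since the untreated libraries are at 0, and is no bound. The call ended when all entries listed at 0 were set to 14 reads per run (0.77, limma adjusted p = 0.190) and without the third Alternaria replicate (4.77, limma adjusted p = 0.0574). Over all alternatives the adjusted p ran from 1.35e-05 to 0.190.

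Against mock, the difference in total RNA was 4.38 ± 1.31, and did not pass (limma, adjusted p = 0.0623), with 6.49% of the families passing. It ranked 1 of the 77 families tested, a rank that rests on controls listed at 0: it was 4 of 101 with the 0s at their limit (1.196, against 2.69 for miR163) and 3 of 77 with genome-matched reads (1.91, against 2.88 for miR163). The adjusted p was under 0.05 without the third mock replicate (5.23, limma adjusted p = 0.0347), which leaves only control libraries at 0 against the group that let the family into the test. It was also under 0.05 in 5 other settings of the fit, among them no filter on low families (4.18, limma adjusted p = 0.0318), which leaves the mock libraries as listed. Over all alternatives the adjusted p ran from 0.000195 to 0.304. Mock and untreated total libraries differed by 0.87 ± 1.31 (limma, adjusted p = 0.739), in a comparison where 5.19% of the families passed, and this difference changed sign with the 0s at their limit (-0.43). The median of all 77 families was 0.31 for Alternaria against mock, 0.35 for Alternaria against untreated leaves and 0.21 for mock against untreated leaves. The comparisons of total RNA share libraries with each other.

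The denominator matters for total RNA, since miRNAs were a small and variable part of those libraries. Per 1000000 genome-matched reads, the Alternaria total libraries held 2.25, 1.95 and 8.56 (4.25 ± 3.73). On this scale the listing allows at most 0.423, 0.940 and 0.942 in untreated and 1.05, 1.70 and 1.35 in mock total libraries. The Alternaria libraries lay above both sets of limits, so with this denominator the groups did not overlap whatever the 0s hide. The mean was at least 5.54-fold higher than in untreated and at least 3.11-fold higher than in mock leaves. miRNAs in general moved with this denominator: they made up 2.53% to 2.76% of the genome-matched reads in untreated, 5.33% to 13.2% in mock and 7.76% to 11.7% in Alternaria total libraries. Scaled in this way, 59 of the 77 families passed for Alternaria against untreated leaves, the median family differed by 1.80, and miR5651 at 2.17 ranked 20. The fit adds 1 to each value before the logarithm, which lowers the fitted difference of a family at 1.95 to 8.56. The 2.17 and its rank are thus not comparable with the lower bounds of the fold above. Against mock, 1 of the 77 passed and the median family differed by 0.34.

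AGO1 libraries kept the same order on that denominator. Untreated AGO1 libraries had 12.4, 15.3 and 18.1 reads per 1000000 genome-matched reads and mock AGO1 libraries 9.72, 15.98 and 14.7. Alternaria AGO1 libraries had 47.0, 54.9 and 27.8, above all 6 controls.

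**Figure D2:**
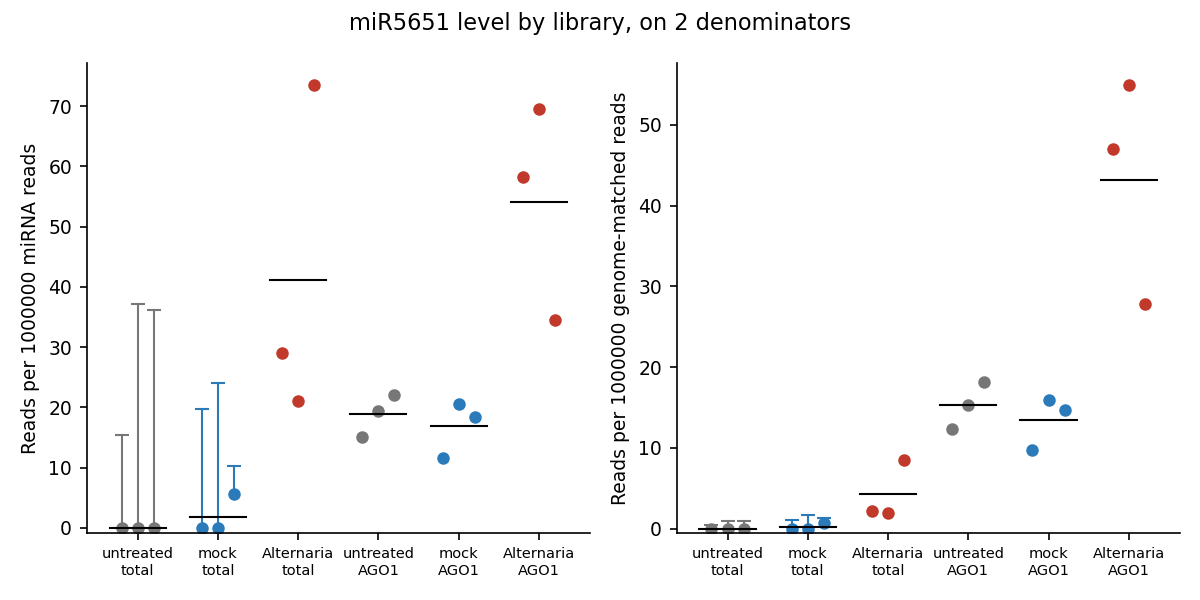
Level of miR5651 in each library by group, per 1000000 miRNA reads (left) and per 1000000 genome-matched reads (right). Points are libraries, horizontal lines are group means as listed, and whiskers reach the highest value that a listing of 0 allows. On the right the Alternaria total libraries, at 1.95 to 8.56, lie above the limits of both control groups, while on the left the ranges overlap at the limits.

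A setting of the same comparison in both library types shows where miR5651 lay among the other families. Of the 59 families tested in both, miR5651 lay farthest out on both axes in this scaling, at 4.38 in total RNA and 1.82 in AGO1 RNA. The first position did not hold with the 0s at their limit or with genome-matched reads, as given above, and the second is the value on which the family was selected. The total axis spans a wider range, with a standard error of 1.31 for miR5651 against 0.28 in AGO1 RNA.

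**Figure D3:**
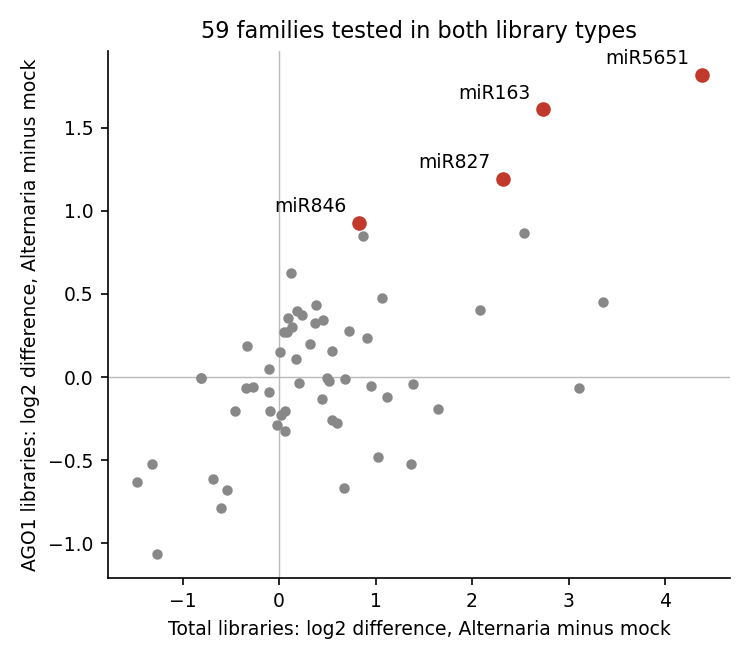
Difference between Alternaria and mock on the log2(CPM + 1) scale in total libraries (horizontal) and AGO1 libraries (vertical), 1 point for each of the 59 families tested in both. Red points mark miR5651, miR163, miR827 and miR846. The AGO1 value of miR5651 carries no test, since the family was selected on it. miR5651 lies at the upper right with 4.38 and 1.82.

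The ratio of AGO1-bound to total miR5651 depended on the denominator and on what the 0s hide, and the 2 library types were made by different protocols. After Alternaria, where all libraries listed it, the mean in AGO1 libraries over that in total libraries was 1.31 per 1000000 miRNA reads, 3.01 with TMM factors over all 18 libraries, and 10.2 per 1000000 genome-matched reads. For untreated leaves the listing gives only a lowest possible ratio, which was 0.638, 1.59 and 19.8 on the same 3 scales. For mock leaves the lowest possible ratios were 0.939, 1.77 and 9.85. Per 1000000 miRNA reads, it thus cannot be told for the controls whether miR5651 was more or less abundant in AGO1 than in total libraries.

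In the fit over all 18 libraries, the difference between AGO1 and total RNA was 5.03 ± 0.55 in untreated, 3.80 ± 0.55 in mock and 1.65 ± 0.55 in Alternaria-treated leaves. These are descriptions, since the family was chosen as AGO1-bound, and the first 2 rest on total libraries at or near 0. The effect of mock treatment, which could be tested, differed between AGO1 and total RNA by -1.23 ± 0.78 and did not pass (limma, adjusted p = 0.442). In that test 1.05% of the 95 families passed, and the median family was at -0.35.

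**Figure D4:**
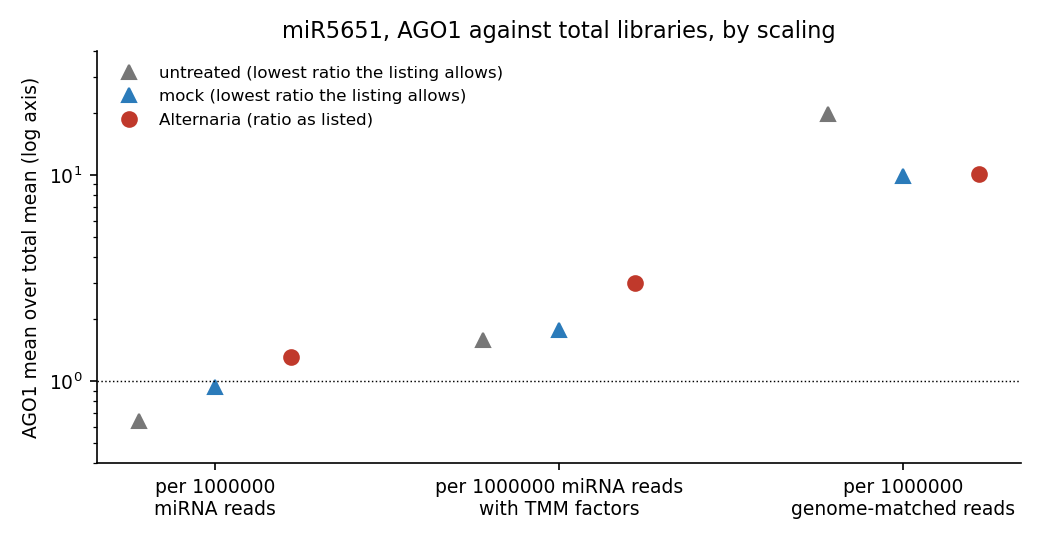
Mean level of miR5651 in AGO1 libraries over that in total libraries (log axis) on 3 scales. Triangles are the lowest ratio the listing allows for untreated and mock leaves, and circles are the ratio as listed after Alternaria. The Alternaria ratio moves from 1.31 per 1000000 miRNA reads to 10.2 per 1000000 genome-matched reads.

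The families whose pattern over the 9 AGO1 libraries was most like that of miR5651 were found by Pearson's r of log2(CPM + 1) among the 78 other families tested. The 9 libraries fall into 3 groups and share their scaling, so r is a description. The median family had an r of -0.06, the 5th and 95th percentiles were -0.63 and 0.86, and 1 family exceeded 0.9.

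That family was miR163, which targets S-adenosylmethionine-dependent methyltransferase transcripts, with r = 0.988. Within the groups, after subtraction of each group mean, r was 0.880. miR163 was at 571 ± 95.8 CPM after Alternaria, 188 ± 43.6 after mock treatment and 255 ± 4.28 in untreated AGO1 libraries (n = 3 each), the same order of groups as miR5651 at a higher level. In total RNA its difference between Alternaria and mock was 2.74 ± 2.88 and did not pass (limma, adjusted p = 0.598). It passed without the third untreated total replicate (2.48 ± 0.38, limma adjusted p = 0.00248). Untreated libraries enter this comparison only through the spread and scaling that the total libraries share, so the failure to pass does not show an unchanged level.

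The next 4 were miR157 (r = 0.894), miR846 (0.872), miR827 (0.869) and miR156 (0.859). For miR156 and miR157, which target SPL transcription factor transcripts and share sequences, r within groups was 0.822 and 0.821. It was computed only for the families named here, so it has no background over the others. For miR846, which targets jacalin-type lectin transcripts, and miR827, which acts in phosphate homeostasis, r within groups was 0.355 and 0.386. miR157 was at 31380 ± 3405 CPM after mock treatment and 42569 ± 7274 CPM after Alternaria, with no overlap of the libraries, and its difference of 0.43 did not pass (limma, adjusted p = 0.416).

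**Figure D5:**
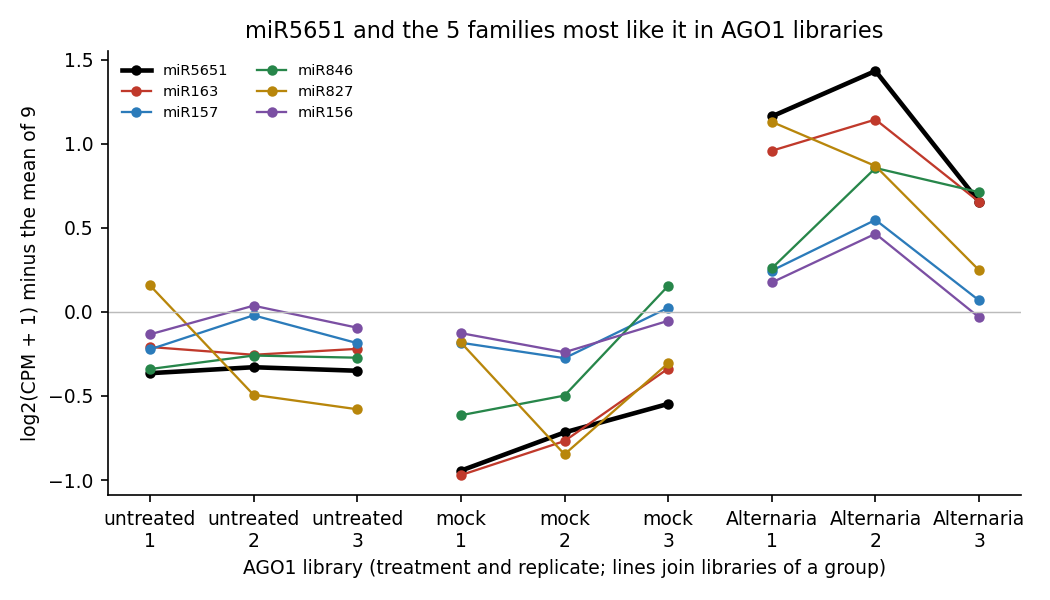
Level of miR5651 (black) and of the 5 families most like it in the 9 AGO1 libraries, as log2(CPM + 1) minus the family's own mean over the 9. Lines join libraries of a group and carry no order. miR5651 and miR163 lie lowest in mock and highest in Alternaria libraries, with r = 0.988 over the 9.

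A list of 159 families known mainly from Arabidopsis and its relatives, of which 61 stand in the table, gives the company of miR5651 among recently evolved miRNAs. The list also holds a few that are known from other plants, such as miR403 and miR858. In total RNA, 38 of its members were tested. Against mock, 0 rose and 0 fell after Alternaria, beside 5 of 77 families in all (6.49%). The median difference was 0.66 against 0.31 over all families. The smallest p belonged to miR822 (-0.69, limma adjusted p = 0.0842), which passed when any 1 of the untreated total replicates was left out, at -0.95 each. Against untreated leaves 5 of the 38 rose and 0 fell, beside 19 of 77 families in all (24.7%, of which 12 rose and 7 fell), with a median of 0.90 against 0.35. The smallest p was that of miR866 at 5.29 (limma, adjusted p = 0.00746), the 1 of the 5 that passed in all alternatives. It reached the minimum for testing in 1 untreated, 3 mock and 3 Alternaria libraries, so it too was tested through groups where it is high. miR846 was at 2.19 (limma, adjusted p = 0.00951), a call that ended without the second untreated or the third Alternaria total replicate (1.52 and 1.76) and with limma-voom. miR400, which targets PPR transcripts, was at 4.98 (limma, adjusted p = 0.0278) and lost its call in 5 of the 9 fits with 1 library left out, those without any 1 of the untreated libraries and without Alternaria replicate 2 or 3 (4.56 to 4.82). With the 0s at their limit miR400 was at 0.29 (limma, adjusted p = 0.585) and with run 1 alone at 2.95 (limma, adjusted p = 0.161). It reached the minimum for testing in 0 untreated, 2 mock and 3 Alternaria libraries. miR838, which lies in an intron of DICER-LIKE1, was at 4.39 (limma, adjusted p = 0.0300) and lost its call without untreated replicate 2 or 3 or any 1 of the Alternaria libraries (4.21 to 4.55). With the 0s at their limit miR838 was at -0.088, and it reached the minimum for testing in 0 untreated, 1 mock and 3 Alternaria libraries. miR5654 was at 4.36 (limma, adjusted p = 0.0300) and passed in 2 of the 9 fits with 1 library left out, those without the first untreated or the first mock library. It reached the minimum for testing in 1 untreated, 3 mock and 3 Alternaria libraries. Between mock and untreated leaves 0 of 38 passed, beside 4 of 77 families in all (5.19%), with a median of 0.40 against 0.21. There miR866 (4.11), miR5654 (4.57) and miR846 (1.36) were also higher in mock leaves, without passing (limma, adjusted p = 0.0602, 0.0602 and 0.188).

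In AGO1 RNA, 48 members of that list were tested. Against mock 2 of the 48 rose and 0 fell after Alternaria, beside 4 of 79 families in all (5.06%): miR163 by 1.61 (limma, adjusted p = 9.72e-05) and miR846 by 0.93 (limma, adjusted p = 0.0322). miR163 passed against mock whichever library was left out, while miR846 lost its call in 6 of these 9 fits, the exceptions being those without the third untreated, the third mock or the first Alternaria library. The same 2 of 48 rose against untreated leaves, beside 7 of 79 in all (8.86%), by 1.15 (limma, adjusted p = 0.00670) and 0.90 (limma, adjusted p = 0.0283). Without untreated replicate 2, Alternaria replicate 2 or Alternaria replicate 3, miR163 no longer passed there (1.202, 1.03 and 1.17), and miR846 lost its call without these 3 libraries, the first untreated or the first mock library. For miR846 the call against mock also ended with median-of-ratios factors (0.84, limma adjusted p = 0.103), and both its AGO1 calls ended with library totals (0.703 and 0.902), genome-matched reads (0.699 and 0.884) and the 0s at their limit (0.57 and 0.75). Neither family passed in either comparison when all 18 libraries shared 1 fit. The median member was at 0.01 against mock and -0.09 against untreated leaves, close to the -0.00 and -0.07 over all families. Between mock and untreated leaves 0 of 48 passed, beside 0 of 79 families in all (0%), with a median of -0.18. In the test of whether that effect differed between library types 0 of 55 passed, beside 1 of 95 in all (1.05%).

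Transcripts with sites complementary to miR5651 were searched in the longest mRNA of each of 31464 genes. The score allowed no gaps, charged 1 for a mismatch and 0.5 for a G:U pair, and counted each charge 2 times at bases 2 to 13 of the miRNA. A site is a match of letters only, and no mRNA levels were measured here. miR5651 had 0 sites at a penalty of 3 or less and 0 at 4 or less, where the main sequences of the other 100 families had a median of 1 and 3 sites. It was not alone in this, since 13 of the 100 also had 0 sites at 4 or less, among them miR170, miR171 and miR173. The sequences compared were 18 to 24 bases long, and the counts were not corrected for length. A count of 0 by this score does not show that a miRNA has no targets.

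The best site had a penalty of 4.5 and lay in the 3′ untranslated region of FAR1 (AT5G22500), the gene of a fatty acid reductase, at chr5:7473292-7473312 on the plus strand. It is printed with its Watson-Crick paired bases in capitals to show how far it departs from full complementarity.
FAR1 site: GTTACTATTTaAACCGCACcg
It had 2 mismatches and 1 G:U pair. Sites at a penalty of 5 lay in 4 more genes: the coding region of SON1 (AT2G17310), an F-box protein gene, the 3′ untranslated region of AT4G21720, annotated as a defensin-like protein, the 5′ untranslated region of AT4G24880, annotated as a snurportin, and AT1G37035, an uncharacterised gene. At least as low a penalty as 4.5 was found for 95 of the 100 other families.

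The authors' own comparisons gave the same directions for miR5651 apart from the table of untreated and mock total RNA. In that table the group means stand in the reverse order of the read numbers. In AGO1 RNA, the authors' deposited table has a mean of 239 normalized counts after mock treatment and 821 after Alternaria, a 3.43-fold ratio. For untreated leaves and Alternaria, the authors' deposited table has 297 and 869 in AGO1 RNA, a 2.92-fold ratio. In total RNA, the authors' deposited table has 3.39 after mock treatment and 77.9 after Alternaria with an adjusted p-value of 0.254, and for untreated leaves and Alternaria it has 0 and 59.8 with an adjusted p-value of 0.00160. The 2 total comparisons fell on the same sides of 0.05 there as with limma here. Both used the same reads, with control libraries at or near 0, so this is no separate support.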

How the data were processed

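Small RNA reads of 18 libraries (9 total, 9 AGO1) were processed by the authors, with cutadapt, FastQC, DESeq 1.2, DESeq2 and TAIR10 named in the submitters' processing notes. Per the file headers, miRProf matched reads to known miRNAs and grouped them into families. The deposited read table gives whole read numbers among lines of family names, so its unit was taken as other than counts and no count model was run. In the 9 comparison tables used, the authors give group means as a signal, their fold ratio, its log2 a p-value and an adjusted p-value per family.

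The 2 runs of a library were summed. Families with at least 10 reads at the median depth in 3 libraries, and 15 in all, were scaled (TMM) and tested as log2(CPM + 1) with limma 3.58.1 (trend, robust) in R 4.3.3, with Benjamini-Hochberg adjustment over all families. The procedure was also run on simulated data, the outcome of which is not given here and supports no result above. Python 3.11.15, pandas 2.3.3, numpy 2.4.6, scipy 1.17.1, matplotlib 3.10.9 and RNAfold 2.7.2 did the rest. Named were miR5651, the 5 families most like it, those numbered from miR5600 to miR5699, and up to 4 members of the Arabidopsis-lineage list by smallest p in each comparison. The family and the lists were chosen with earlier results of these data known. Alternatives were other scalings, pseudocounts, filters, limma-voom, single runs, left-out replicates, a replicate block, 0s at their limit and 1 fit of 18 libraries.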

Additional observations from a re-analysis of the deposited data

How the results depend on the processing

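The higher AGO1 level after Alternaria kept its direction in each alternative run, from 1.47 to 1.89 against mock and from 1.19 to 1.54 against untreated leaves. The lowest value against mock (1.47) came with the 0s set to 14 reads per run. Leaving out 1 library gave 1.56 to 1.83 and 1.26 to 1.54. Between mock and untreated AGO1 libraries the difference ran from -0.47 to -0.08.

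In total RNA, where miR5651 was tested through its Alternaria libraries, Alternaria against mock had an adjusted p under 0.05 with a pseudocount of 5 (2.75), with no filter (4.18), with limma-voom (5.38), with run 1 alone (4.10) and with 18 libraries in 1 fit (3.81). Leaving out 1 library gave 3.90 to 5.23. Alternaria against untreated leaves no longer passed with the 0s at their limit (0.77), and leaving out 1 library gave 4.77 to 5.68. Mock against untreated total leaves turned to -0.43 with the 0s at their limit, and leaving out 1 library gave 0 to 1.31. The difference of that effect between library types ran from -1.77 to -0.00 and did not pass in any alternative. miR838 in Alternaria against untreated total leaves turned to -0.088 with the 0s at their limit.

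AGO1 against total RNA moved with the scaling. In untreated leaves it was 5.21 with median-of-ratios factors, 4.30 with library totals, 4.01 with genome-matched reads, 6.00 and 2.87 with pseudocounts of 0.5 and 5, and 1.84 with the 0s at their limit. In mock leaves it was 2.19 with a pseudocount of 5 and 1.84 with the 0s at their limit. In Alternaria leaves it was 2.69, 0.53 and 3.24 with the same 3 scalings and 2.62 with the 0s at their limit. Apart from the raised 0s and pseudocounts, the cause was not tested.

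Libraries were not treated as paired by replicate number. Deviations of same-numbered libraries had r from -0.257 to 0.151 in AGO1 and from -0.240 to 0.431 in total RNA. In each library type 2 of 9 pairs exceeded 0.1, and these values cannot show that there was no pairing. With the replicate block, the families that passed in AGO1 RNA went from 4 to 7 against mock and from 7 to 11 against untreated leaves. With the replicate block, miR5651 differed in total RNA by 4.38 against mock (limma, adjusted p = 0.0882) and 5.25 against untreated leaves (limma, adjusted p = 0.0183), and no call for it changed.

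The number of families that passed ranged over the alternatives from 1 to 6 (5 as reported) for Alternaria against mock in total RNA, 10 to 59 (19) for Alternaria against untreated, 0 to 48 (4) for mock against untreated, and 0 to 22 (1) for the difference between library types. In AGO1 RNA it ranged from 0 to 7 (4), 0 to 14 (7) and 0 to 1 (0) in the same order. The highest total counts of 59 and 48 came with genome-matched reads. Depth limits the controls of total RNA most, since 28 hidden reads are up to 38.8 CPM there.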

Other observations

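The table holds 8 other families with names between miR5600 and miR5699, and 1 of them, miR5640, was listed in all 9 AGO1 libraries as miR5651 was. miR5640 held 513 to 838 reads in Alternaria, 231 to 574 in mock and 407 to 626 in untreated AGO1 libraries. Its groups overlapped in these read numbers, which are not scaled for library depth, so they do not show whether scaled levels overlap. On the scaled values its difference between Alternaria and mock was 0.87 (limma, adjusted p = 0.0914). It passed without the third untreated AGO1 library (0.87, limma adjusted p = 0.0487) and with the replicate block (limma, adjusted p = 0.0337). In total RNA it was listed in 6 of 9 libraries, with 30 to 145 reads in the Alternaria group. miR5629 and miR5652 were each listed in 7 AGO1 libraries and in 0 and 1 total libraries, with at most 59 and 75 reads. miR5654 showed the opposite listing, in 7 total libraries with up to 402 reads and in 0 AGO1 libraries. miR5642 (4 total libraries) and miR5653 (1) were also listed in 0 AGO1 libraries. miR5663 was listed in 7 total and 2 AGO1 libraries, and miR5648 in 2 Alternaria AGO1 libraries. Of the 4 tested in total RNA, 1 (miR5654) passed as higher after Alternaria than in untreated leaves (4.36), where 24.7% of all families passed. It was also higher in mock than in untreated leaves (4.57), without passing (limma, adjusted p = 0.0602), so the higher level was not seen only after Alternaria. The call against untreated leaves was lost in 7 of the 9 fits with 1 library left out and with run 1 alone (3.61, limma adjusted p = 0.0505). Of the 3 tested in AGO1 RNA 0 passed against mock, where 5.06% of all families passed.

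In the authors' deposited table of untreated and mock total RNA, miR5651 has a mean of 2.21 in the column named first, for untreated leaves, and 0 in the second. The read table lists 0 reads in all untreated total libraries and 17 in mock. Of the 22 families in that authors' deposited table with a log2 difference over 1 in size, 0 had the sign of the read sums, against 14 of 14 and 27 of 27 in the authors' deposited tables of Alternaria with mock and with untreated total RNA.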
